A study of Mus musculus with 9 samples.

Results

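The collagen genes of mouse liver are described here, as measured on Affymetrix GeneChip arrays of livers from mice on a control diet or on a high-fat diet (HFD). They were taken as every gene whose symbol has the form of Col, a number, the letter a and a number in the platform annotation, among probe sets paired with exactly 1 symbol. This gave 41 of the 17514 genes tested, read by 75 of 41782 probe sets. The mice were of the strain c57Bl/6 and had eaten chow before the study. The 4 control arrays carry the diet label control, which the labels do not describe further, and the 5 HFD arrays carry a diet with 21% fat by which 42% of calories came from fat. The labels give no genotype beyond the strain, no sex, age or time on the diet, and do not tell whether the arrays come from separate animals. The p-values therefore measure the spread between these arrays alone, and that spread may be technical.

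Collagens are proteins of the extracellular matrix in which 3 chains wind into a triple helix. Fibrillar collagens assemble into the banded fibres of connective tissue, and types I and III are the main ones of the liver capsule, the portal tracts and fibrotic scar. Type IV collagens form the sheet-like network of basement membranes. The other types decorate fibrils, form beaded filaments or hexagonal networks, or span the cell membrane. In the liver much of the fibrillar collagen is made by hepatic stellate cells, which store vitamin A and can turn into contractile myofibroblasts, and by fibroblasts of the portal tracts, while endothelial cells also make type IV collagen. The prolyl and lysyl hydroxylases, chaperones and crosslinking enzymes of the secretory pathway finish the chains that all these genes encode.

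Values were read as log2, relative to a baseline of each probe set that the series' design text describes as its median over the samples. In most probe sets the middle values were those that a median over 10 arrays would give, and 9 arrays were analysed here. With such values a gene can be compared between arrays, but levels cannot be compared between genes. A gene that the liver hardly expresses cannot be told from one that it does. In RNA from whole liver, fewer cells of a type and less RNA per cell cannot be told apart. Over all genes HFD replicate 5 stood apart from the other arrays. Its SD over genes was 0.40, against 0.25 to 0.31 in the other 8 arrays, and it held the lowest value of the 9 arrays in 21.5% of all genes. It was the lowest array in 2 of the 41 collagens and the highest in 7. Every difference given is the HFD mean minus the control mean (log2), followed by its standard error, and a gene was taken to have risen or fallen where its p-value from limma, adjusted over all 17514 genes, was under 0.05.

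The starts of 3 fibrillar collagen genes are shown because the only collagen that passed the test (Col5a3) and the chains of the main fibrils (Col1a2 and Col3a1) carry the results on fibrils. Each sequence is the 250 bases before the annotated start of the gene, 5′ to 3′ on the strand of the gene, from RefSeq (GRCm38.p6). The capitals mark the letters CCAAT, which were searched on both strands (ATTGG on the other).
Col5a3: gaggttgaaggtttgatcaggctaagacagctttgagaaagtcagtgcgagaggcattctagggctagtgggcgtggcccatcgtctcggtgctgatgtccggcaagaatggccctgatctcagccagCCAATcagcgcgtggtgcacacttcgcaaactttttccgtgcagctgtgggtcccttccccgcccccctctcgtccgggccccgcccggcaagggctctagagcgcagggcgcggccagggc
Col1a2: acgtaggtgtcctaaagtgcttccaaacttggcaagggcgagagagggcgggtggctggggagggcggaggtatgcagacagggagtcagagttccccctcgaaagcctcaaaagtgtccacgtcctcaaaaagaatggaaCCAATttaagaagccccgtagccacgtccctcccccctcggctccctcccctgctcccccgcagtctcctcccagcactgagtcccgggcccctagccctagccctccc
Col3a1: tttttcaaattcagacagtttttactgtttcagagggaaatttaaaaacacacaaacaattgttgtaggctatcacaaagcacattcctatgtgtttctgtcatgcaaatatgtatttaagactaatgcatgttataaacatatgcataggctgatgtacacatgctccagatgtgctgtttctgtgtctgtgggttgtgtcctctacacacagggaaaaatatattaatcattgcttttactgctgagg
The window of Col5a3 lies at chr9:20815068-20815317 (minus strand), that of Col1a2 at chr6:4505368-4505617 (plus strand) and that of Col3a1 at chr1:45311288-45311537 (plus strand). The first base of CCAAT lay 122 bases before the start in Col5a3 and 109 bases before it in Col1a2, and the window of Col3a1 did not hold these letters. Of the 32 collagens with a promoter entry 12 (37.5%) held the letters, against 34.5% of 27025 promoters of the same length. Of the other letters searched, on both strands, GGGCGG (on the other strand CCGCCC) was held by 19 of the 32 collagens (59.4%), against 32.9% of all promoters, and TATAAA (on the other strand TTTATA) by 5 (15.6%), against 13.0%. These shares carry no test, and base composition was not matched.

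Few collagen genes passed the test. Of the 41 genes 1 rose (2.44%) and 0 fell, while 5.24% of all genes tested were called (3.37% higher and 1.87% lower in HFD). At an unadjusted p under 0.05 there were 5 collagens (12.2%), a smaller share than the 19.1% of all genes. The differences ranged from -0.74 (Col14a1) to 0.68 (Col5a3), 19 were above 0 and 22 below, and their median was -0.0031, against -0.02 over all genes tested. The median size of a difference without its sign was 0.12 in the collagens and also 0.12 over all genes. By the probe set that represents each gene, the HFD and control arrays were fully separated in 1 of 41 collagens (Col4a2), and in 9.82% of all genes. Another probe set of Col23a1 (1429210_at) was also fully separated, with controls from 0.01 to 0.07 and HFD arrays from -0.19 to -0.0004.

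**Figure D1:**
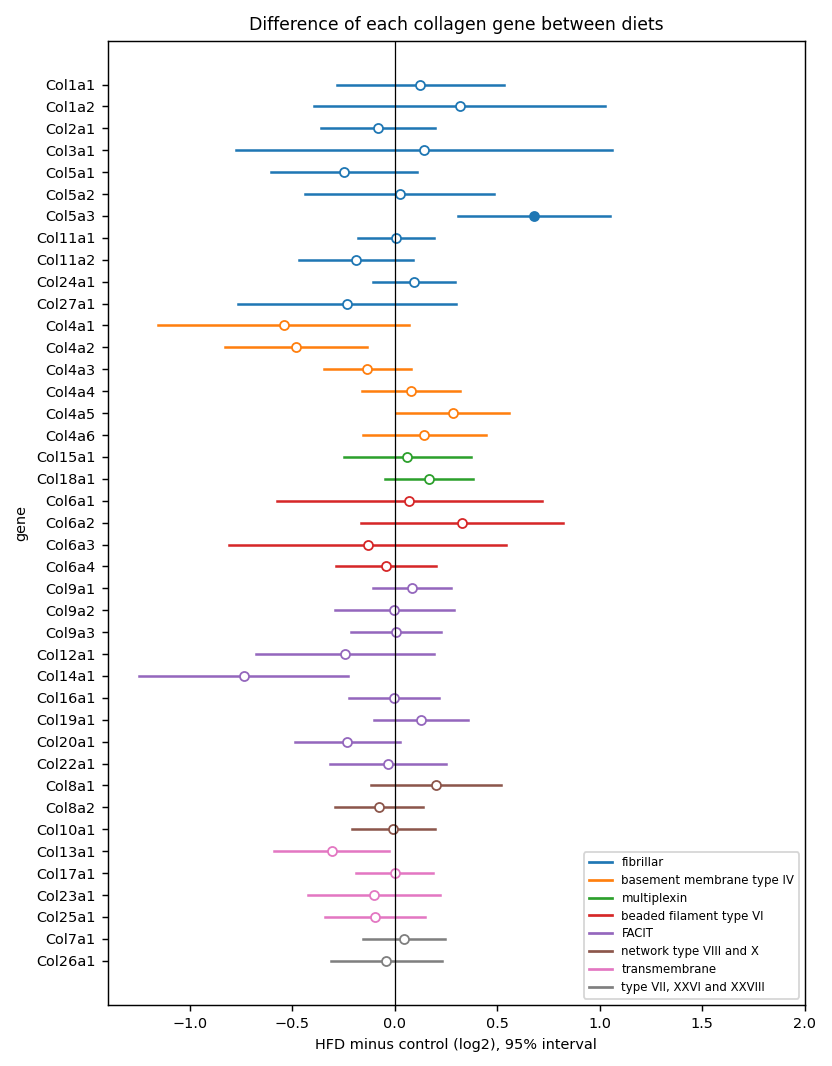
Difference between HFD and control for each of the 41 collagen genes (x axis, log2 scale, points with 95% confidence intervals), coloured by class, with a filled point where the adjusted p was under 0.05. Col5a3 is the single filled point, at 0.68, and the interval of Col3a1 runs from -0.78 to 1.06.

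Among the 11 fibrillar collagens, Col5a3, which encodes a chain found in some forms of type V collagen, rose by 0.68 ± 0.17 (1.599-fold, 95% confidence interval 0.31 to 1.05, adjusted p = 0.0448). Its probe set 1419703_at read -0.02, -0.47, -0.22 and 0.02 in control replicates 1 to 4. In HFD replicates 1 to 5 it read 0.66, 0.64, 0.72, -0.06 and 0.57. The groups overlapped, since HFD replicate 4 lay within the control range and the other 4 HFD arrays lay above it. The second probe set of the gene, 1425984_at, differed by 0.08 ± 0.11 and did not pass (adjusted p = 0.764 with every probe set tested on its own), and with both probe sets averaged the difference of Col5a3 was 0.38 (adjusted p = 0.0123). When 1 array was left out, Col5a3 passed without HFD replicate 4 (0.82, adjusted p = 0.00640) and in none of the other 8 cases. There its adjusted p lay between 0.0678 (without control replicate 4) and 0.140 (without control replicate 2).

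The chains of the main fibrils did not pass. Col1a1, which encodes the more abundant chain of type I collagen, read 0.03, -0.03, 0.33 and -0.25 in control replicates 1 to 4 and -0.18, -0.28, 0.55, 0.28 and 0.35 in HFD replicates 1 to 5. Its difference was 0.12 ± 0.18 (95% confidence interval -0.28 to 0.53, adjusted p = 0.777). The groups overlapped, with HFD replicates 1 and 2 among the lowest arrays and HFD replicates 3 and 5 the highest.

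Col1a2, the partner chain of type I collagen, read 0.03, -0.09, -0.03 and -0.68 in control and -0.36, -0.84, 0.64, 0.83 and 0.35 in HFD, in the order of the replicates. HFD replicates 3, 4 and 5 lay above every control array, while HFD replicate 2 was the lowest of the 9. The difference was 0.32 ± 0.32, with a 95% confidence interval from -0.39 to 1.02 and an adjusted p of 0.656.

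Col3a1, the single chain of type III collagen, repeated this order with a wider range. The controls read 0.13, -0.12, 0.12 and -0.82, and the HFD arrays -0.66, -1.26, 0.63, 0.95 and 0.18. HFD replicate 2 was again the lowest array and HFD replicate 4 the highest, and the groups overlapped. The difference was 0.14 ± 0.42 (95% confidence interval -0.78 to 1.06, adjusted p = 0.899). Both genes have a second probe set, with differences of 0.14 ± 0.25 for Col1a2 and 0.32 ± 0.17 for Col3a1, neither past the threshold.

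The other chains of type V collagen, which helps to start fibrils of type I, did not pass. Col5a1 had a difference of -0.25 ± 0.16 and Col5a2 of 0.02 ± 0.21, and both were lowest in HFD replicate 2 (-0.70 and -0.39). Whether the 3 type V genes differ from each other in their response was not tested. Col5a2 lies next to Col3a1 on the chromosome, and in it HFD replicate 4 was the highest array (0.81).

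The remaining fibrillar collagens, several of them known from cartilage, did not pass. Col2a1, the chain of type II collagen, had a difference of -0.08 ± 0.13, Col11a1 of 0.01 ± 0.08 and Col11a2 of -0.19 ± 0.13, the last 2 being chains of type XI collagen. Col24a1 differed by 0.09 ± 0.09 and Col27a1 by -0.23 ± 0.24. In Col27a1 1 array weighed on the HFD mean: HFD replicate 4 read -1.002 and the other HFD arrays -0.02 to 0.35. Without HFD replicate 4 the difference of Col27a1 was -0.01, and its other probe set had the opposite sign (0.18 ± 0.23).

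**Figure D2:**
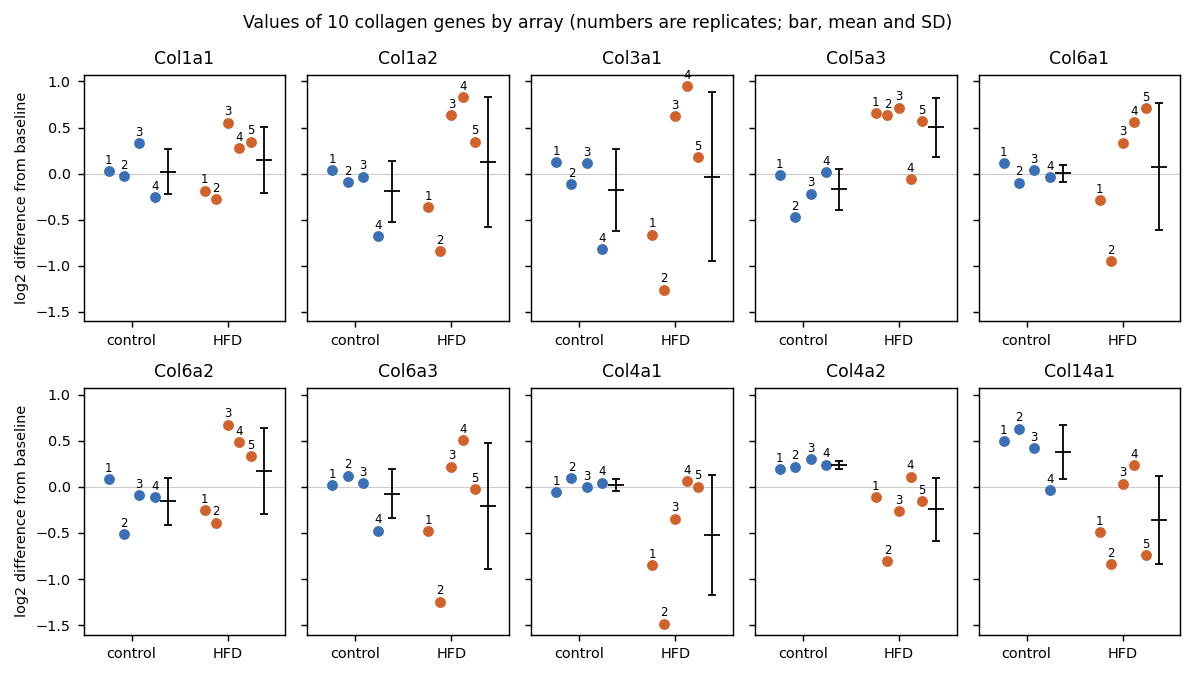
Values of 10 collagen genes in each array (y axis, log2 difference from the probe set baseline), with control in blue, HFD in orange, replicate numbers above the points and the mean and SD as a bar. In Col1a2 and Col3a1 the HFD arrays spread from the lowest to the highest of all arrays, in Col5a3 HFD replicate 4 lies with the controls at -0.06, and in Col4a2 the 4 controls lie between 0.20 and 0.30.

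None of the 6 type IV collagens passed the test. Col4a1 and Col4a2 encode the chains of the most widespread basement membrane network. Their annotated starts lie 21 bases apart on opposite strands, and the 22 bases from one start to the other are shown because they belong to both genes (chr8:11312805-11312826 of GRCm38.p6, plus strand, from RefSeq).
Col4a1 and Col4a2: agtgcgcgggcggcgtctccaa
Col4a2 read 0.20, 0.22, 0.30 and 0.24 in control replicates 1 to 4 and -0.11, -0.80, -0.26, 0.11 and -0.15 in HFD replicates 1 to 5. Every HFD array lay below every control array, the only collagen of which this held, and HFD replicate 2 was the lowest. The difference of -0.48 ± 0.16 (95% confidence interval -0.83 to -0.14) did not pass over all genes (adjusted p = 0.113).

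Col4a1 read -0.06, 0.09, -0.0021 and 0.05 in control and -0.85, -1.48, -0.34, 0.06 and 0.0021 in HFD. HFD replicates 1, 2 and 3 lay below all controls and HFD replicates 4 and 5 among them. Its difference was -0.54 ± 0.28 (adjusted p = 0.328), and without HFD replicate 2 it was -0.30. The other probe set of Col4a1 gave -0.58 ± 0.21 (adjusted p = 0.167 with every probe set tested on its own).

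The remaining type IV genes are also arranged as neighbouring pairs, Col4a3 with Col4a4 and Col4a5 with Col4a6, whose chains form networks best known from the kidney filter and other specialised membranes. Col4a5 differed by 0.28 ± 0.12 (95% confidence interval 0.01 to 0.56, adjusted p = 0.251), where HFD replicates 3, 4 and 5 read 0.17, 0.34 and 0.42. HFD replicates 1 and 2 read -0.02 and -0.10, inside the control range of -0.30 to 0.02. Col4a6 had a difference of 0.14 ± 0.14, Col4a3 of -0.14 ± 0.10 and Col4a4 of 0.08 ± 0.11. Averaging its probe sets moved Col4a4 to -0.01. Of the multiplexins, basement membrane collagens with a split helix, Col18a1, whose product can be cut to release endostatin, differed by 0.17 ± 0.10 (adjusted p = 0.406) and Col15a1 by 0.06 ± 0.14.

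Markers of liver endothelium are given beside type IV. Of 20 measured markers 3 fell (15.0%, against 1.87% of all genes), 0 rose and 17 were not called, with 19 of the 20 values below 0 and a median of -0.81. Those that fell were Fcgr2b, an Fc receptor of the sinusoids, by 2.003 ± 0.44, Stab1, a scavenger receptor, by 0.82 ± 0.20, and Flt4, the receptor of lymphatic growth factors, by 1.03 ± 0.25. The array means of the list ran from 0.12 to 0.54 in control and from -0.96 to 0.15 in HFD, with HFD replicates 2 and 5 at -0.96 and -0.94. The count of 3 fell to 1 without HFD replicate 2 or HFD replicate 5 and to 0 without HFD replicate 3 or any 1 of the controls, and was 7 without HFD replicate 1 and 11 without HFD replicate 4. It was 9 after further quantile normalization, 10 without the 25% of genes with the smallest SD, 6 with array weights, 5 with every probe set on its own, and 0 in the unmoderated model, at an adjusted p under 0.01 or with the probe set chosen by its SD within groups. The part of this list in the values of Col4a1 and Col4a2 was not tested.

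Type VI collagen forms beaded filaments around cells, and its 4 measured genes did not pass. Col6a1 read 0.11, -0.10, 0.04 and -0.04 in control and -0.29, -0.95, 0.34, 0.56 and 0.71 in HFD. The 4 controls thus lay within the gap between HFD replicates 1 and 2, which were lower, and HFD replicates 3, 4 and 5, which were higher. Its difference was 0.07 ± 0.29 (adjusted p = 0.931).

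Col6a3, which encodes the longest chain, had a difference of -0.13 ± 0.31, with HFD replicate 2 lowest at -1.24 and HFD replicate 4 highest at 0.51. Leaving out HFD replicate 2 turned its sign (0.13). Col6a2, the neighbour of Col6a1, had a difference of 0.33 ± 0.22 (adjusted p = 0.482) and read -0.25 and -0.39 in HFD replicates 1 and 2, and 0.68, 0.48 and 0.33 in HFD replicates 3, 4 and 5. Col6a4 read between -0.11 and 0.31 in all 9 arrays.

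Collagens that sit on the surface of fibrils (the FACIT class) held the largest difference below 0. Col14a1, which binds fibrils in tissues under tension, read 0.50, 0.63, 0.42 and -0.04 in control and -0.49, -0.84, 0.04, 0.23 and -0.74 in HFD. HFD replicates 1, 2 and 5 lay below all controls, and HFD replicates 3 and 4 lay above control replicate 4. Its difference of -0.74 ± 0.23 (1.67-fold lower, 95% confidence interval -1.25 to -0.23) was not past the threshold (adjusted p = 0.103).

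The call of Col14a1 depended on the array left out and on how arrays were weighted. It was past the threshold without HFD replicate 4 (-0.89, adjusted p = 0.0378) and with array weights estimated by limma (-0.82, adjusted p = 0.0422), and in the other alternatives the adjusted p reached up to 0.275. The other 2 probe sets of the gene had the same sign, with -0.34 ± 0.18 and -0.02 ± 0.08, and averaging all 3 gave -0.37. Of the 8 other FACIT genes Col19a1 had the largest value above 0 (0.13 ± 0.10) and Col12a1 the largest below 0 (-0.24 ± 0.20).

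The small classes held no call. Of the network collagens Col8a1, a chain of type VIII collagen of vessel walls, had a difference of 0.20 ± 0.14 and Col8a2, its partner, of -0.08 ± 0.10. The 4 transmembrane collagens all had values below 0 (-0.31 to -0.00), with Col13a1 at -0.31 ± 0.13 (adjusted p = 0.211). Col7a1, the chain of anchoring fibrils, differed by 0.04 ± 0.09 and Col26a1 by -0.04 ± 0.12.

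**Figure D3:**
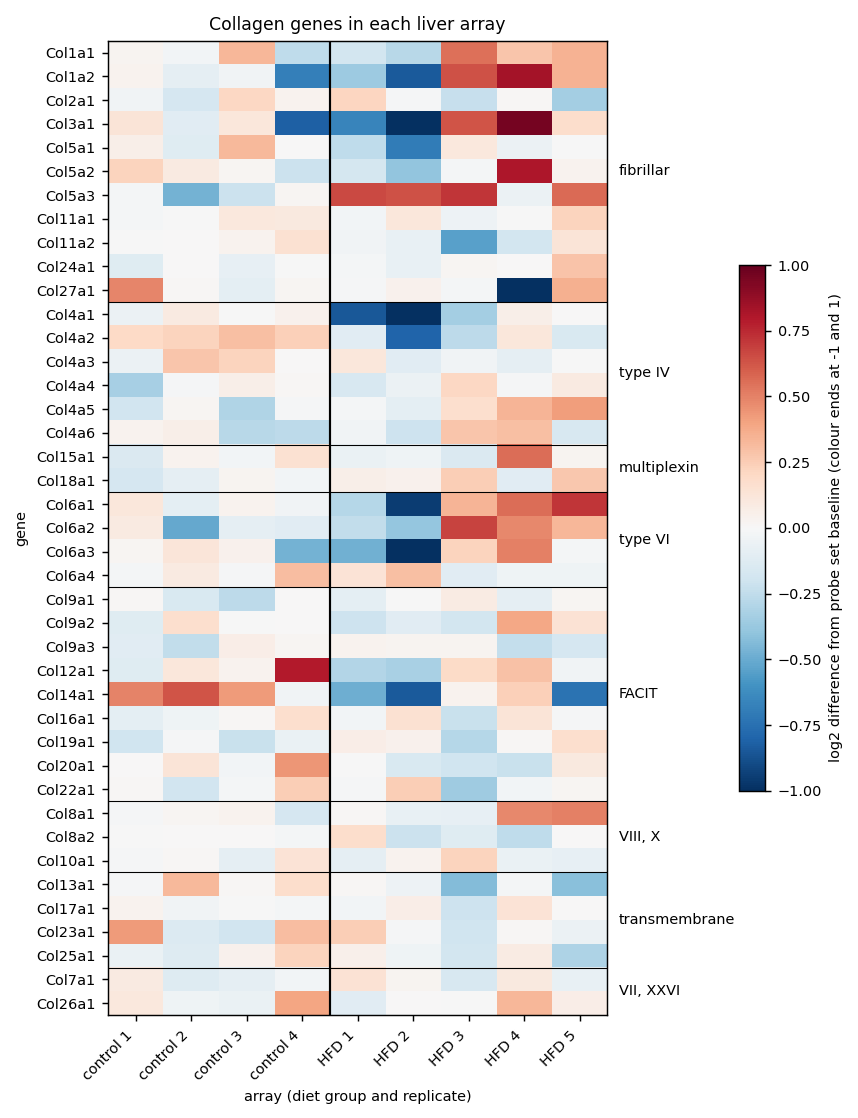
Log2 difference from the probe set baseline of the 41 collagen genes (rows, by class) in the 4 control and 5 HFD arrays (columns), in red above and blue below the baseline, with colour ending at -1 and 1. The column of HFD replicate 2 holds the strongest blue, such as -1.48 in Col4a1, -1.26 in Col3a1 and -1.24 in Col6a3.

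Collagens varied more among the HFD arrays than among the controls. The SD over HFD arrays was the larger one in 33 of 41 collagens (80.5%), while this held for 65.1% of all genes tested, and no test of this share was made. It was the larger one in 11 of 11 fibrillar, 4 of 6 type IV, 4 of 4 type VI, 5 of 9 FACIT, 2 of 2 multiplexin, 3 of 3 type VIII and X, 3 of 4 transmembrane and 1 of 2 type VII and XXVI genes. The median SD of a collagen was 0.16 in control and 0.22 in HFD, against 0.14 and 0.18 over all genes. Leaving out each array in turn gave between 29 and 36 collagens, with 58.4% to 68.7% of all genes, and 31 collagens without HFD replicate 5, the array that stood apart. The fibrillar count was then between 9 (without HFD replicate 4) and 11.

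The 6 collagens with the largest SD over HFD arrays were Col3a1, Col1a2, Col6a1, Col6a3, Col4a1 and Col27a1. The SD was 0.45 in control and 0.92 in HFD for Col3a1, 0.33 and 0.70 for Col1a2, and 0.27 and 0.68 for Col6a3. Col6a1 (0.09 and 0.69) and Col4a1 (0.07 and 0.65) had a small SD in control, and Col27a1 had 0.26 and 0.51. Col12a1 and Col23a1 were among the 8 collagens with the larger SD in control.

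**Figure D4:**
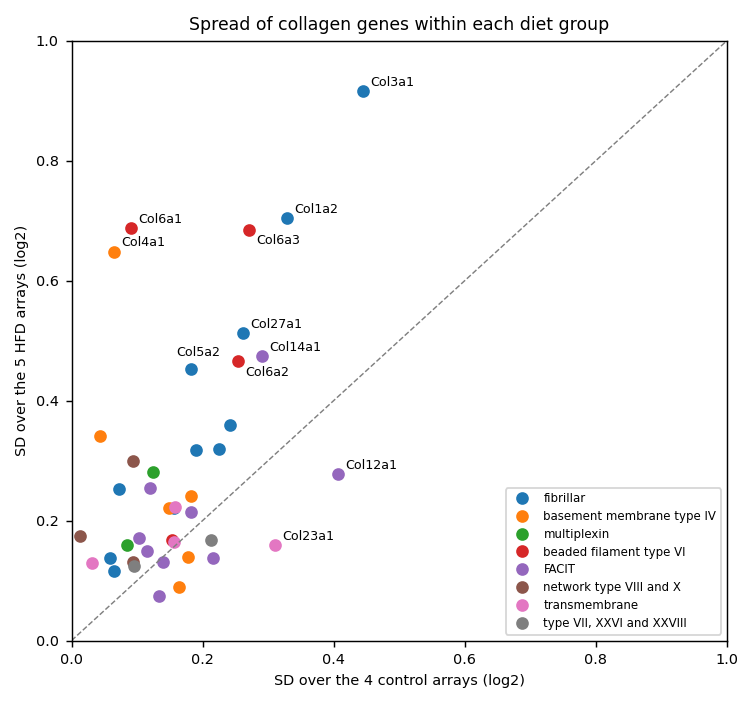
SD of each collagen gene over the 4 control arrays (x axis) and the 5 HFD arrays (y axis), both on the log2 scale, coloured by class, with a dashed line of equal SD. Points above the line are the 33 genes with the larger SD in HFD, and Col3a1 lies highest at 0.92.

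The array at the bottom of these spreads was often HFD replicate 2. It held the lowest of the 9 values in 12 of 41 collagens (29.3%), among them Col1a1, Col1a2, Col3a1, Col4a1, Col4a2, Col6a1, Col6a3 and Col14a1, and the highest in 0, whereas over all genes it was the lowest in 9.26% and the highest in 8.35%. Low values in HFD replicate 2 were not particular to collagens. Among other lists of this section, it was the lowest in 12 of 25 other interstitial components and 9 of 20 liver endothelial markers. The counts were 4 of 9 for myofibroblast markers, 6 of 14 for breakdown and 7 of 22 for signalling. They were smaller for Kupffer cell markers (1 of 15), receptors (1 of 9) and hepatocyte markers (0 of 10). HFD replicate 3 was the lowest in 10 collagens, against 11.8% of all genes. These counts were made after the values had been seen and carry no test. The mean of the 41 collagens in an array lay between -0.01 and 0.02 in control, and was -0.08, -0.22, 0.02, 0.13 and 0.07 in HFD replicates 1 to 5.

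Of 24 measured genes of collagen processing and crosslinking 1 rose and 1 fell (8.33%, against 5.24% of all genes), with a median difference of -0.06. Ppib, which encodes a prolyl isomerase that helps the helix to fold, fell by 0.51 ± 0.11 (adjusted p = 0.0267), with controls from 0.18 to 0.47 and HFD arrays from -0.38 to 0.02, no overlap. Its call was lost without control replicate 1, 2 or 3 or HFD replicate 3, with an adjusted p of up to 0.0936 in these cases. It was also lost with the probe set chosen by its SD within groups and in the unmoderated model. The same held at an adjusted p under 0.01 and at 1.5-fold or more. Over all 22 alternatives the difference of Ppib lay between -0.56 and -0.24, with an adjusted p of up to 0.382. Mia3, whose product helps to load collagen into transport carriers, rose by 0.92 ± 0.23 (adjusted p = 0.0469), but with its 4 probe sets averaged the difference was 0.15 (adjusted p = 0.348). Its call held without control replicate 3 or HFD replicate 4 and was lost without any 1 of the other arrays, with an adjusted p of up to 0.140.

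Among receptors, breakdown and signals no gene passed in either direction (5.24% of all genes were called). At an unadjusted p under 0.05 there were 0 of 9 receptor genes, 4 of 14 genes of breakdown (28.6%) and 5 of 22 of signalling (22.7%), against 19.1% of all genes. None of the receptor genes passed, and the lowest p-values belonged to Itga1 (-0.24 ± 0.11) and Itgb1 (-0.42 ± 0.25), the subunits of a collagen-binding integrin. In collagen breakdown the lowest p-values were those of Mmp14, a membrane-bound collagenase (0.49 ± 0.14, adjusted p = 0.0741), and Mmp8, the neutrophil collagenase (-0.24 ± 0.09). Over all 22 alternatives the difference of Mmp14 lay between 0.10 and 0.58, with an adjusted p from 0.0608 to 0.863. In TGF-beta and PDGF signalling the lowest p-values were those of Tgfbr3, a co-receptor of TGF-beta (-0.59 ± 0.16, adjusted p = 0.0575), and Ltbp4, which tethers latent TGF-beta to the matrix (-0.46 ± 0.14). Tgfbr3 passed after further quantile normalization, without the 25% of genes with the smallest SD and with array weights. Without HFD replicate 4 it also passed (-0.71, adjusted p = 0.0157), as the 1 gene of signalling then called, and 1 gene of breakdown was called. Without HFD replicate 1, 1 gene of signalling was called.

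Of 17 other basement membrane components 1 rose and 0 fell (5.88%, near the 5.24% of all genes). Most of the list lay lower in HFD, with 4 values above 0, 13 below and a median of -0.18. At an unadjusted p under 0.05 there were 5 (29.4%), against 19.1% of all genes. The groups did not overlap in 3 (17.6%), against 9.82% of all genes. Lamb3, which encodes a chain of the laminin of epithelial anchoring, rose by 1.29 ± 0.21 (2.45-fold, adjusted p = 0.00792), with controls from -0.98 to -0.29 and HFD arrays from 0.29 to 1.15. Its call held without any 1 of the 9 arrays, and the count of the list was 2 without HFD replicate 1. The second lowest p was that of Hspg2, the proteoglycan perlecan, at -0.26 ± 0.09 (adjusted p = 0.135). Over all 22 alternatives the difference of Hspg2 lay between -0.30 and -0.006, with an adjusted p from 0.103 to 0.979.

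None of 25 other interstitial components passed, while 5.24% of all genes were called. At an unadjusted p under 0.05 there were 5 (20.0%), near the 19.1% of all genes. Of the 25 values 11 were above 0 and 14 below. Lum and Dcn, which encode small proteoglycans that bind fibrils and space them, had differences of -0.96 ± 0.27 (adjusted p = 0.0718) and -0.49 ± 0.16 (adjusted p = 0.109). In both, HFD replicate 2 was the lowest array, as in Col14a1, and HFD replicate 4 lay within the control range (0.58 in Lum and 0.22 in Dcn). Both passed without HFD replicate 4, when the count of the list was 3 and 996 of all 17514 genes were called.

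Markers of the cells that make collagen are given next. Of 16 measured stellate cell markers 1 rose and 1 fell (12.5%, against 5.24% of all genes), with 12 values below 0 and a median of -0.11: Lrat, which esterifies vitamin A for storage, rose by 0.71 ± 0.17, and Reln, which encodes reelin, fell by 0.53 ± 0.13. Lrat passed without HFD replicate 1 and Reln without HFD replicate 4, and each lost its call without any other array. The count of the list was 3 without HFD replicate 4, 1 without HFD replicate 1 and 0 without any other array or with probe sets averaged. It was also 0 with the probe set chosen by its SD within groups, in the unmoderated model and at an adjusted p under 0.01. With array weights 2 of the list fell and 0 rose, so Lrat lost its call there. Of 9 myofibroblast markers 1 rose, Tpm2, a tropomyosin, by 1.76 ± 0.20 (adjusted p = 0.00142, 0.99 with its 4 probe sets averaged), and its groups did not overlap. Myh11, the smooth muscle myosin, had a difference of 0.36 ± 0.17. Of the 9 values 7 were above 0 and 2 below, with a median of 0.12. Acta2, the smooth muscle actin that marks myofibroblasts, is given here after its values were seen. It differed by 0.62 ± 0.40 (adjusted p = 0.460), with -0.25 and -0.58 in HFD replicates 1 and 2 and 1.00, 0.70 and 1.71 in HFD replicates 3, 4 and 5. The array means of the myofibroblast list lay between -0.34 and -0.09 in control and were -0.15, -0.26, 0.20, 0.33 and 0.76 in HFD replicates 1 to 5. Their part in the values of the fibrillar and type VI collagens was not tested. None of 11 portal fibroblast markers passed, with Upk1b at -0.30 ± 0.13 and Entpd2 at 0.24 ± 0.15.

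**Figure D5:**
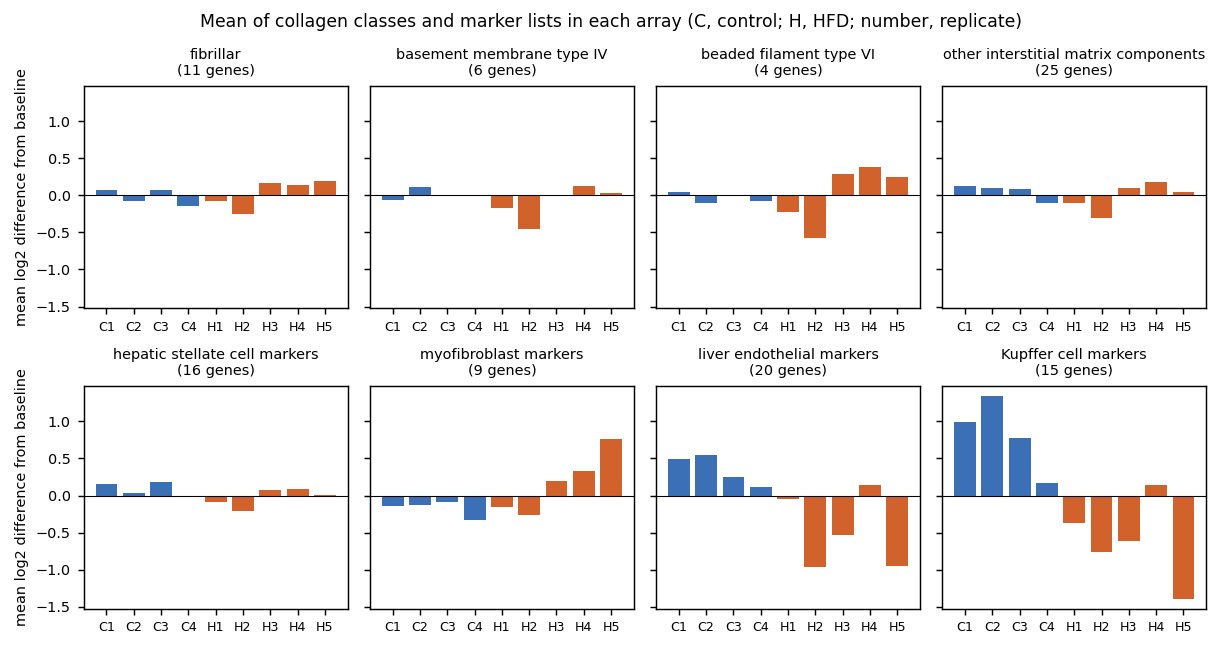
Mean log2 difference from baseline of the members of 3 collagen classes, 1 matrix list and 4 lists of cell type markers in each array (bars, control in blue and HFD in orange). The type VI mean is lowest in HFD replicate 2 (-0.57) and highest in HFD replicate 4 (0.37), and the Kupffer cell mean is highest in control replicate 2 (1.34).

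Markers of further cell types are given for the whole liver. Over all genes 5.24% were called and 1.87% fell. Of 15 Kupffer cell markers 11 fell (73.3%) and 0 rose, with Timd4 and Folr2, receptors of resident macrophages, at -1.16 ± 0.20 and -1.25 ± 0.22, and array means from 0.17 to 1.34 in control and from -1.39 to 0.14 in HFD. This count was 7 without HFD replicate 1, 6 without HFD replicate 2, 4 without HFD replicate 3 or control replicate 1 or 3, and 3 without control replicate 2. It was 1 at an adjusted p under 0.01, 0 in the unmoderated model and 9 with the probe set chosen by its SD within groups. It was 14 without control replicate 4 or with array weights, and 12 without HFD replicate 4. After further quantile normalization, or without the 25% of genes with the smallest SD, it was 13. HFD replicate 5, with the lowest array mean (-1.39), was the lowest array in 14 of the 15 markers. Of 10 neutrophil markers 1 fell (S100a9, by 1.97 ± 0.45), and S100a8 had -2.04 ± 0.56. S100a9 lost its call without HFD replicate 2 or 3 or any 1 of the controls, and S100a8 passed without HFD replicate 1 or 4. Of 8 cholangiocyte markers 1 rose (Krt23, by 0.69 ± 0.09), and Pkhd1 had 0.72 ± 0.20 and passed without HFD replicate 5. Of 6 adipocyte markers 1 rose (Cidec, by 2.25 ± 0.38, a droplet protein that fatty hepatocytes also make), and Car3 had 3.26 ± 1.195 and passed without control replicate 1. Of 10 hepatocyte markers 1 fell (Hnf4a, by 0.91 ± 0.19), with Fgb at -0.37 ± 0.11. Hnf4a lost its call without HFD replicate 3 or control replicate 2, 3 or 4, and the count of the list was 2 without HFD replicate 2. The call of Hnf4a was also lost without probe sets ending in _x_at or _s_at and with the probe set chosen by its SD within groups. The same held in the unmoderated model and at an adjusted p under 0.01. Over all 22 alternatives its difference lay between -1.01 and -0.52, with an adjusted p of up to 0.366. Of 11 lymphocyte markers none passed, with Ms4a1 at -0.31 ± 0.13 and Gzma at -0.19 ± 0.09. In these lists, values above and below 0 numbered 4 and 4 for cholangiocytes (median 0.03) and 3 and 7 for hepatocytes (median -0.17). They numbered 5 and 1 for adipocytes (median 0.11), 1 and 9 for neutrophils (median -0.12) and 4 and 7 for lymphocytes (median -0.07). The part of all these cell types in the collagen values was not tested.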

How the data were processed

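Liver RNA was measured on 9 Affymetrix arrays, 4 control and 5 HFD. The deposited values entered the fit unchanged. The authors used RMA (named without a version in the submitters' processing notes), quantile normalization and a shift of each probe set to its median over the samples, per the series' design text. The authors' values were read as log2 differences; the sources used here do not give their log base. Among all probe sets, 92.8% had 2 neighbouring middle values of equal size and opposite sign (tolerance 1e-05), as a median taken over 10 arrays would give, and 9 arrays were analysed here. Centring removes levels, so no filter on low signal could be set.

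After 60 control probe sets were left out, 32801 probe sets had 1 gene symbol, 862 had several and 8119 had none, and 32614 matched the gene table by Entrez ID, with 0 symbols changed. No probe set with several symbols named a collagen. Each gene was represented by its probe set with the largest SD over the 9 arrays, which also favours larger differences. Of 41 collagens 24 had several probe sets, all of one sign in 19. Col6a5, Col6a6, Col21a1 and Col28a1 were listed but are not analysed here.

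HFD was compared with control in limma 3.58.1 (R 4.3.3, lmFit and eBayes without a trend, two-sided, Benjamini-Hochberg over 17514 genes), tested on simulated data. The number of arrays limits the precision. No 2 arrays of a group shared more than 0.148% of their values. The labels give no batch. Replicate numbers follow the order of deposition and only name an array. Promoters and neighbouring genes come from RefSeq (GRCm38.p6), in which 32 of the 41 collagens matched a promoter entry.

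The members, the 6 pathway lists and the 10 marker lists were chosen with earlier results of these data known, and no set was tested. Named by rule were every collagen past the threshold, all fibrillar and type IV collagens, the largest rise and fall of each other class, pathway members past the threshold or with the 2 lowest p-values, and the 2 markers of each list with the lowest p. Others (Col6a1, Col6a4, Col12a1, Col15a1, Col23a1, Flt4 and Acta2) were named after their values were seen. Alternatives were other scalings, probe set choices, filters, robust eBayes, array weights, an unmoderated model, an adjusted p under 0.01, at least 1.5-fold, and leaving out arrays, singly or HFD replicate 5 with control replicate 1. The counts of larger SD without each array were added after seeing the data.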

Additional observations from a re-analysis of the deposited data

Results flagged for a closer look

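In 4 collagens and 2 listed genes 1 array stood far from the others of its group by Dixon's ratio, the gap to the nearest array divided by the range of the group. This was examined in 118 groups (59 named genes in both diets), and chance flags about 1 in 20 groups. In Col5a3, HFD replicate 4 read -0.059 and the nearest HFD array 0.57. In Col27a1 the same array read -1.002, with the nearest at -0.02. Col24a1 was high in HFD replicate 5, at 0.28, with the nearest at 0.02. Among controls, Col6a3 was low in control replicate 4, at -0.47, with the nearest at 0.02. Control replicate 1 was high in Itgb1 (0.15, nearest 0.01) and in Car3 (2.52, nearest -2.43).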

How the results depend on the processing

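Of 22 alternatives, 8 kept the count of 1 collagen past the threshold. The count of collagens and that of fibrillar collagens were both 0 when the probe set was chosen by its SD within groups, in the unmoderated model, at an adjusted p under 0.01 and without both HFD replicate 5 and control replicate 1, and with array weights the counts were 2 collagens and 1 outside the fibrillar and type IV classes. Leaving out 1 array gave 0 to 2 collagens, 0 to 1 fibrillar and 0 to 1 other, and type IV stayed at 0 in all 22. Over all genes the 590 higher and 327 lower calls became 538 in all with the choice within groups, 366 unmoderated, 245 at an adjusted p under 0.01, 596 at 1.5-fold or more, and 385 to 996 without 1 array. No scaling moved the median of all genes (-0.02) by over 0.1.

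Signs turned in 9 genes, among them Upk1b with a main value of -0.30, none past the threshold. For Col11a1 the value was -0.0098 after further quantile normalization, -0.0088 under array weights, -0.059 without both HFD replicate 5 and control replicate 1, and -0.038 to 0.030 when 1 array was left out. Col4a4 gave -0.010 with probe sets averaged, -0.027 without both those arrays and -0.0080 to 0.12 without 1 array. Col19a1 gave -0.051 with the choice within groups. Array weights gave -0.029 for Col1a1, -0.18 for Col3a1 and -0.066 for Col5a2. Without 1 array Col3a1 ranged from -0.11 to 0.45, Col5a2 from -0.17 to 0.13, Col6a3 from -0.31 to 0.13 and Col26a1 from -0.11 to 0.058. Upk1b was 0.0013 when probe sets ending in _x_at or _s_at were dropped. The cause was not tested. No paired analysis was possible because the labels give no replicate numbers that the groups share.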
